A study of Saccharomyces cerevisiae with 12 samples.

Results

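The nuclear genes of the yeast mitochondrial ribosome were described across zinc-deficient wild type, atg1 and atg41 cells. They are the rows of the gene count table whose standard name is MRPL, MRPS or RSM followed by digits, 54 genes of 6660 features. By name the 34 MRPL genes were assigned to the large subunit, and the 9 MRPS and 11 RSM genes to the small subunit, 20 in all. RSM22, a methyltransferase-like protein, is counted there by its name alone. A further 24 mitochondrial ribosomal proteins carry other names and are given only as a comparison.

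The mitochondrial ribosome translates the few messenger RNAs of the mitochondrial genome, which encode mainly core subunits of the respiratory chain and of the ATP synthase. Its ribosomal RNAs are made inside the organelle, but its proteins, with Var1 as the known exception in yeast, are encoded in the nucleus, made in the cytosol and imported. Some of these proteins have counterparts in bacterial ribosomes, and others are known only from mitochondria.

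All 3 strains were BY4743, a diploid laboratory strain of Saccharomyces cerevisiae, with 4 libraries each and 12 in all. WT carried no deletion, atg1 lacked ATG1, the kinase that starts autophagy, and atg41 lacked ATG41 (also ICY2), a protein needed for full autophagy. Every culture, WT included, had been grown with ample zinc, washed 3 times and then starved of zinc for 8 h at 30 °C, so that no zinc-replete sample enters any comparison. The labels do not give the 4 libraries of a strain as separate cultures or clones, and p-values measure the spread between these libraries, which may be partly technical.

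Libraries held 9623157 to 11247182 expected counts, and the mean count of a mitochondrial ribosomal protein gene ranged from 119.7 to 1171.8, with a lowest single count of 69. ATG1 had 0 counts in all 4 atg1 libraries, and ATG41 had a total of 1 count over the 4 atg41 libraries. The first atg1 replicate differed most from the rest of its strain, with 33.4 to 55.8 as the chi-square of counts per gene, where every other pair of libraries of one strain gave 3.44 to 9.18. In comparisons with atg1, counts and named values are therefore also given without it. RNA was measured in bulk, so that less RNA per cell and fewer cells with the transcript cannot be told apart.

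The genes lie on 14 chromosomes, and 1 of the 54 has an intron in its coding sequence. They are short: the median coding length was 706.5 bases (213 to 1887), against 1197 bases for all annotated protein genes, while the median GC content was 39.7% against 39.8%. Of the large-subunit genes 21 have a bacterial counterpart and 13 are known only from mitochondria, and of the small-subunit genes 12 and 7 do, with RSM22, a methyltransferase-like protein, in neither class. MRPL19 and MRPL51 overlap another annotated gene. The library kit does not mark strand, and reads from the shared bases cannot be told apart from those of the overlapping gene.

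The 54 genes share a sequence that the choice of members did not use. Puf3 is an RNA-binding protein known in yeast to bind messenger RNAs of nuclear genes for mitochondrial proteins through an element of 8 bases after the coding sequence, TGTANATA in DNA letters. The element was searched on the transcribed strand in the 200 bases after the stop codon, in the R64 genome. It was present in 53 of 54 genes (98.1%), in all 34 of the large subunit and in 19 of 20 of the small subunit, RSM22 being the one without it. All 24 mitochondrial ribosomal protein genes under other names held it, against 843 of 5985 annotated protein genes (14.1%). On the opposite strand of the same windows the letters occurred in 10 of the 54 genes (18.5%) and in 13.2% of all genes. A match of letters is a description and does not show that Puf3 binds there.

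The elements of the genes with the largest changes, of MRPS12 and of MRPL32 are shown with 10 bases on each side, from 5′ to 3′ on the transcribed strand, with the element in capitals. Positions are those of the RefSeq R64 assembly.
RSM23, chrVII:267627-267654, minus strand: ccatttctcaTGTACATAtaaatagata
MRPL3, first element, chrXIII:323055-323082, plus strand: tttgccatttTGTAGATAgagaactcct
MRPL3, second element, chrXIII:323090-323117, plus strand: aatacattctTGTACATAtatatataca
MRPL8, chrX:315715-315742, minus strand: tgtattccctTGTAAATAtatagatgac
MRPS16, first element, chrXVI:528882-528909, minus strand: atgtatatgtTGTATATAtgttttactt
MRPS16, second element, chrXVI:528841-528868, minus strand: ctatcagactTGTAAATAatacatctat
MRPL25, chrVII:637009-637036, minus strand: tgtctaatcaTGTAAATAattttgtgat
MRPS8, chrXIII:572762-572789, plus strand: atacggaccaTGTAAATAataatattat
MRPS12, chrXIV:694270-694297, minus strand: tacaacctttTGTAAATAgcaatgacca
MRPL32, chrIII:119207-119234, plus strand: aacttaagccTGTATATAgaaacttaat

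The genes held 66 elements, and 12 genes held more than 1. The variable base was A in 29 elements, T in 20, C in 16 and G in 1, the first element of MRPL3. Elements began a median of 56.5 bases after the stop codon, with a range of 8 to 165 and quartiles at 34 and 85. Since 53 of the 54 genes hold the element, its presence cannot separate genes that rose from genes that fell in the comparisons below. RSM23 and MRPS16, for example, both hold it.

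**Figure D1:**
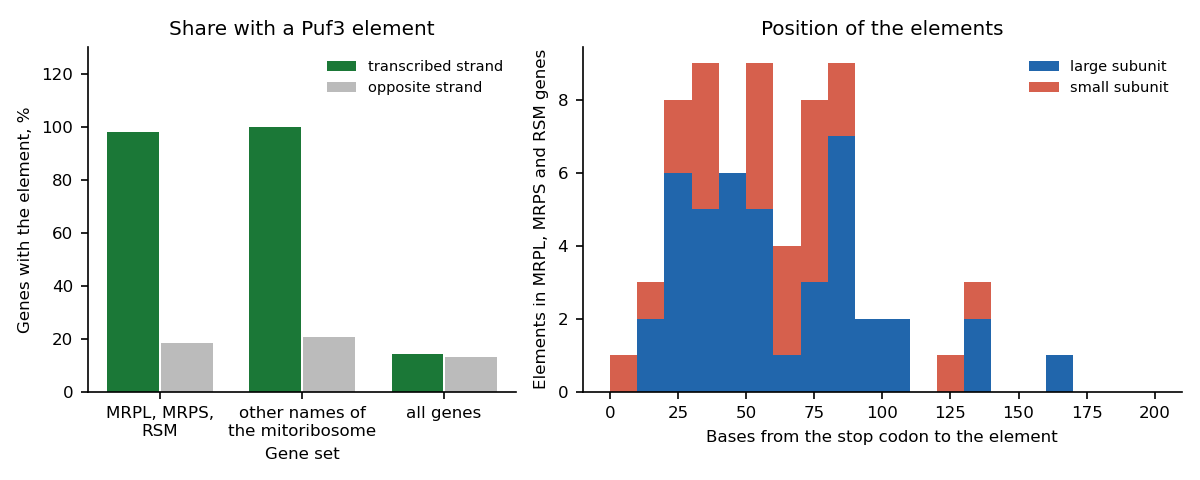
Left, share of genes (%) with the Puf3 element in the 200 bases after the stop codon, on the transcribed strand (green) and the opposite strand (grey), for the 54 genes, the 24 genes of the mitochondrial ribosome under other names and all 5985 annotated protein genes. Right, number of elements by distance from the stop codon (bases) in the 54 genes, stacked by subunit; the transcribed-strand shares are 98.1%, 100% and 14.1%.

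Levels between genes were compared as the authors' deposited TPM, which is per length. In WT the median of the 54 transcripts was 50.9 TPM, with quartiles at 38.9 and 71.3 TPM. Within 2-fold of that median were 46 of the 54. The spread of TPM over all genes was not computed. MRPS12, the counterpart of bacterial S12 at the decoding centre, was the most abundant, with 257, 249, 229 and 270 TPM in the WT libraries (251 ± 17.1 TPM, SD, n = 4). RSM10, the counterpart of S10, followed with 143 ± 1.69 TPM and MRPL23, the counterpart of L13, with 118 ± 7.04 TPM. The lowest were MRPL4, the counterpart of L29 (30.1 ± 1.96 TPM), MRPL24, the counterpart of L28 (24.6 ± 1.98 TPM), and RSM22 (15.9 ± 1.85 TPM). The highest and the lowest mean differed 15.8-fold.

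The order of levels was resolved only at its ends. Of the 53 pairs of neighbours in the WT order, 4 had WT libraries that did not overlap: MRPS12 over RSM10, RSM10 over MRPL23, MRPL4 over MRPL24 and MRPL24 over RSM22. The median coefficient of variation of a gene across the 4 libraries was 6.3% in WT, 9.59% in atg1 and 8.74% in atg41. The median level was 48.2 TPM in atg1 and 56.5 TPM in atg41. Medians of single libraries overlapped, at 46.9 to 52.0 TPM in WT, 43.4 to 52.2 TPM in atg1 and 47.0 to 56.8 TPM in atg41. For all annotated genes they were 40.9 to 44.1 TPM in WT, 34.4 to 41.6 TPM in atg1 and 38.8 to 41.7 TPM in atg41.

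**Figure D2:**
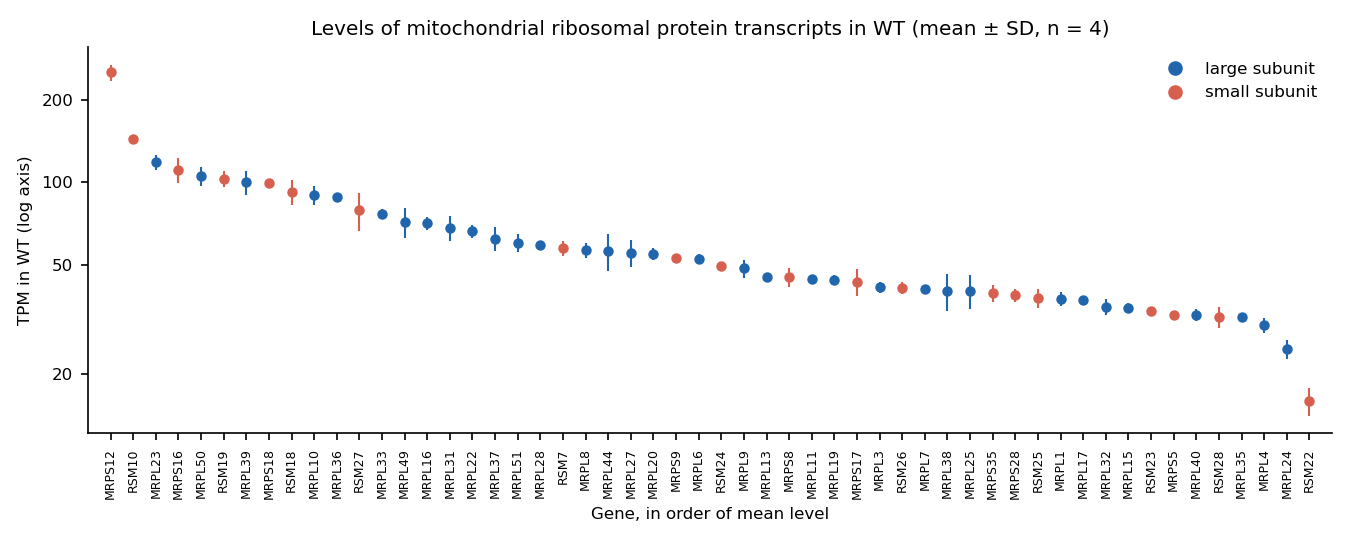
Level of each of the 54 transcripts in WT in the authors' TPM (log axis), mean ± SD of 4 libraries, in order of the mean and coloured by subunit. MRPS12 stands highest at 251 TPM and RSM22 lowest at 15.9 TPM, and most neighbours in between overlap.

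Comparisons between strains used CPM, a count relative to the TMM-adjusted total of its library, and edgeR's quasi-likelihood test over all 6195 genes tested, with Benjamini-Hochberg adjustment and a threshold of 0.05. All 54 genes passed the filter on low counts. Log2 fold changes are given ± SE, and levels as CPM of single libraries or mean ± SD, with n = 4 libraries per strain. The comparisons of atg1 and of atg41 with WT share the WT libraries, and both comparisons of atg41 share the atg41 libraries, so that their values stand side by side and are not independent of each other.

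In atg1, 1 of the 54 mitochondrial ribosomal protein transcripts passed the test against WT. MRPS12 had 108, 100, 90.3 and 110 CPM in WT and 122, 119, 117 and 128 CPM in atg1. All 4 atg1 libraries lay above the 4 of WT, and the transcript rose from 102 ± 8.88 to 121 ± 4.53 CPM, or 0.25 ± 0.06 on the log2 scale (edgeR adjusted p = 0.0404). This call stood close to the threshold: it was lost in 12 of 20 alternatives, among them without WT replicate 3 (0.19, edgeR adjusted p = 0.156) and with libraries scaled to equal totals (0.17, edgeR adjusted p = 0.0950), and it stood without atg1 replicate 1 (0.25, edgeR adjusted p = 0.0284). MRPS12 was the only gene called among the 54 and none was called lower, where 3.73% of all genes tested were called, 0.387% higher and 3.34% lower.

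The other 53 genes ranged from -0.34 to 0.21 in atg1 against WT. The median of the 54 was 0.01 and that of all genes tested -0.01, and 30 of the 54 values were positive. Libraries did not overlap between the strains for 9 genes, 4 above and 5 below WT, where 13.8% of all genes tested did not overlap, 4.7% above and 9.09% below. An unadjusted p under 0.05 was reached by 13 of the 54 in edgeR, against 21.2% of all genes tested. DESeq2 called 3 of the 54, 2 higher and 1 lower, where it called 2.14% of all genes higher and 4.46% lower.

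Genes just outside the threshold went both ways. MRPS9, the counterpart of bacterial S9, had 44.4, 43.0, 43.4 and 44.1 CPM in WT and 52.6, 46.6, 49.7 and 50.8 CPM in atg1 (0.19 ± 0.05, edgeR adjusted p = 0.0506). MRPL16, the counterpart of L16, had 47.3, 44.4, 48.6 and 49.7 CPM in WT and 37.3, 40.1, 43.6 and 36.5 CPM in atg1 (-0.27 ± 0.07, edgeR adjusted p = 0.0505). Neither pair of groups overlapped, and neither gene passed, although MRPS9 passed in 5 of 20 alternatives and MRPL16 in 4. Without atg1 replicate 1 the values were 0.17 for MRPS9 (edgeR adjusted p = 0.0948) and -0.24 for MRPL16 (edgeR adjusted p = 0.0646). Both genes were named after their values were seen. The lowest values were those of MRPS16 (-0.34 ± 0.12, edgeR adjusted p = 0.123) and MRPS17 (-0.34 ± 0.11, edgeR adjusted p = 0.0998), counterparts of S16 and S17. Without atg1 replicate 1 the count of called genes was 3, with 1 higher and 2 lower, where 0.515% of all genes tested were called higher and 4.59% lower. MRPS16 (-0.42, edgeR adjusted p = 0.0438) and MRPL40 (-0.33, edgeR adjusted p = 0.0273), the counterpart of L24, then passed as lower, MRPS17 did not (-0.34, edgeR adjusted p = 0.0972), and the median was -0.03.

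**Figure D3:**
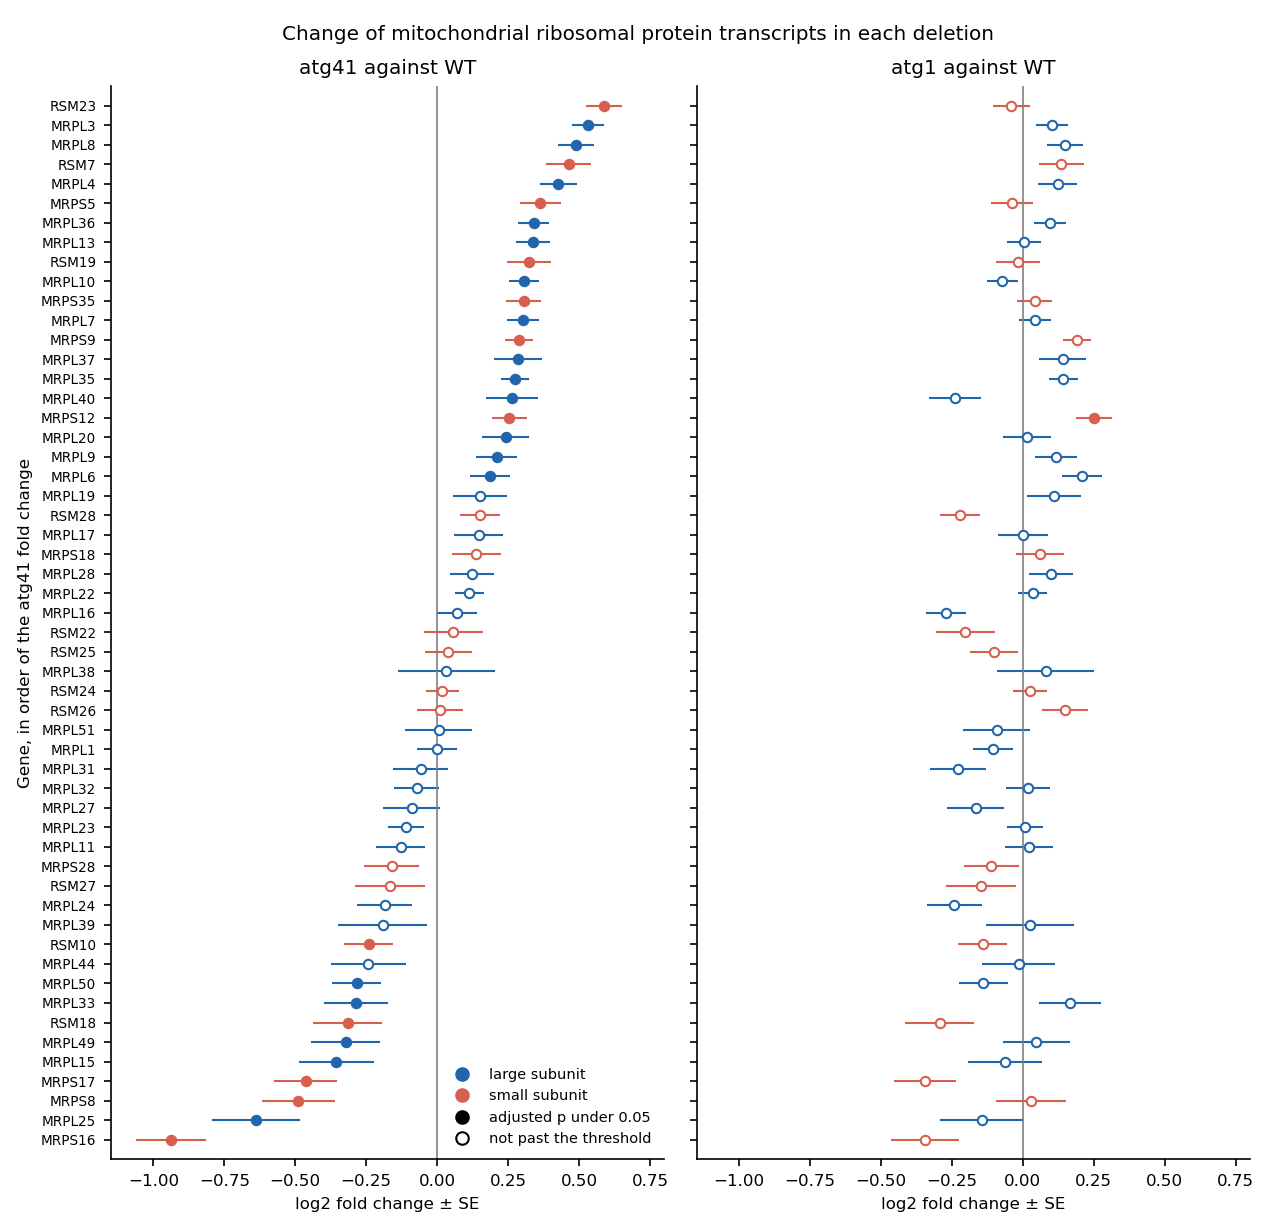
Log2 fold change ± SE of each of the 54 transcripts in atg41 against WT (left) and atg1 against WT (right), in the order of the atg41 value, coloured by subunit, with filled points where the edgeR adjusted p is under 0.05. On the left 20 genes are called higher and 10 lower, on the right MRPS12 alone is called; the 2 panels share the WT libraries.

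Loss of ATG41 was accompanied by changes of both signs. Of the 54 genes 20 rose and 10 fell, 55.6% in all, where 65.9% of all genes tested were called, 29.9% higher and 35.9% lower. The share of the 54 that rose was 37.0% and the share that fell 18.5%. Without atg41 replicate 3, 20 genes were called higher and 5 lower, where 28% and 34.3% of all genes tested were. Their median was 0.06 against -0.04 for all genes tested, and their interquartile range was 0.45 against 0.66. None of the 54 changed 2-fold or more in either direction, while 686 of the 6195 genes tested (11.1%) did. MRPS16 passed 2-fold in 3 of 20 alternatives: with equal totals (-1.07), without WT replicate 4 (-1.02) and without atg41 replicate 2 (-1.05).

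Among the genes that rose, the largest change was that of RSM23, the yeast counterpart of the mammalian small-subunit protein DAP3, on chromosome VII (267723 to 269075, minus strand, 1 exon). RSM23 had 47.4, 47.6, 46.9 and 49.0 CPM in WT, 42.0, 48.3, 45.3 and 49.9 CPM in atg1, and 69.0, 68.2, 78.8 and 71.2 CPM in atg41. All 4 atg41 libraries lay above the 8 others, while those of atg1 and WT overlapped. The transcript rose from 47.7 ± 0.90 to 71.8 ± 4.86 CPM in atg41, or 0.59 ± 0.06 on the log2 scale (edgeR adjusted p = 1.85e-06).

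MRPL3, a large-subunit protein with a fold related to ribonuclease III (chromosome XIII, 321875 to 323047, plus strand, 1 exon), had 48.2, 51.3, 47.8 and 51.5 CPM in WT and 69.2, 69.9, 76.5 and 71.9 CPM in atg41 (0.53 ± 0.06, edgeR adjusted p = 1.53e-06). MRPL8, the counterpart of bacterial L17 (chromosome X, 315759 to 316475, minus strand, 1 exon), had 43.3, 37.5, 35.4 and 40.3 CPM in WT and 52.9, 54.3, 56.0 and 56.5 CPM in atg41 (0.49 ± 0.06, edgeR adjusted p = 9.72e-06). For both genes the atg41 libraries lay above those of WT and above those of atg1, which ranged from 49.9 to 56.8 CPM for MRPL3 and from 42.6 to 45.4 CPM for MRPL8.

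RSM7, the counterpart of S7, a protein of the head of the small subunit, rose from 41.5 ± 3.38 to 57.1 ± 4.54 CPM (0.46 ± 0.08, edgeR adjusted p = 1.37e-04). MRPL4, the counterpart of L29 at the exit of the peptide tunnel, rose from 29.0 ± 2.17 to 39.0 ± 1.67 CPM (0.43 ± 0.07, edgeR adjusted p = 5.73e-05), and MRPS5, the counterpart of S5, from 30.3 ± 1.31 to 39.0 ± 3.14 CPM (0.36 ± 0.07, edgeR adjusted p = 4.86e-04). Libraries did not overlap for any of these 3 genes. All 3 calls stood in each alternative, with values as low as 0.25 for RSM7 with the trend over GC content and coding length removed and 0.23 for MRPS5 with equal totals. MRPS12 rose by about as much as in atg1, with 124, 121, 128 and 113 CPM in atg41 (0.25 ± 0.06, edgeR adjusted p = 0.00257), and this call was lost with equal totals (0.12, edgeR adjusted p = 0.0839). Of the 20 genes that rose, 18 had 4 atg41 libraries above the 4 of WT, and the libraries overlapped for MRPL9 and MRPL6, the counterparts of L3 and L6, which were named after their values were seen. The MRPL9 call (0.21, edgeR adjusted p = 0.0200) was lost in 4 of 20 alternatives and the MRPL6 call (0.19, edgeR adjusted p = 0.0317) in 9, with equal totals in both (0.07 and 0.05). Over all 54, libraries did not overlap for 20 genes above and 8 below, where 65.3% of all genes tested did not overlap, 30.1% above and 35.2% below.

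The largest fall was that of MRPS16, the counterpart of bacterial S16, on chromosome XVI (528985 to 529350, minus strand, 1 exon). MRPS16 had 34.5, 34.0, 35.1 and 28.4 CPM in WT, 29.9, 25.2, 27.0 and 21.8 CPM in atg1, and 18.1, 21.0, 14.1 and 15.7 CPM in atg41. The atg41 libraries lay below all 8 others. The transcript fell from 33.0 ± 3.13 to 17.2 ± 3.00 CPM, or -0.94 ± 0.12 on the log2 scale (edgeR adjusted p = 1.21e-05).

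MRPL25, a large-subunit protein known only from mitochondria whose loss is known to extend replicative life span in yeast (chromosome VII, 637104 to 637577, minus strand, 1 exon), had 15.2, 17.5, 19.2 and 15.2 CPM in WT and 11.2, 13.7, 7.30 and 10.9 CPM in atg41 (-0.64 ± 0.15, edgeR adjusted p = 0.00217). MRPS8, the counterpart of S8 (chromosome XIII, 572248 to 572715, plus strand, 1 exon), had 19.6, 17.9, 19.8 and 16.9 CPM in WT and 15.2, 13.6, 12.2 and 11.9 CPM in atg41 (-0.49 ± 0.13, edgeR adjusted p = 0.00380). MRPS17, the counterpart of S17, had 26.5, 29.7, 32.9 and 29.9 CPM in WT and 23.5, 21.4, 16.5 and 24.9 CPM in atg41 (-0.46 ± 0.11, edgeR adjusted p = 0.00204). In each of the 3 genes the groups did not overlap. In MRPL25 and MRPS17 atg41 replicate 3 was the lowest of the 4. It was also the lowest in every other gene called lower except MRPS8: MRPS16, MRPL15, MRPL33, RSM10, RSM18, MRPL49 and MRPL50. In MRPL50 the margin was narrow (29.6 against 29.7 CPM in atg41 replicate 1). Without atg41 replicate 3 the genes called lower numbered 5, where all libraries gave 10. With each of the 12 libraries left out in turn, that number ranged from 5 to 10. Why this library stood low was not tested.

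MRPL15, which like MRPL3 has a fold related to ribonuclease III, had 25.2, 26.1, 25.6 and 26.6 CPM in WT and 24.2, 24.5, 13.9 and 18.3 CPM in atg41 (-0.36 ± 0.13, edgeR adjusted p = 0.0293). Its groups did not overlap, yet 2 atg41 libraries stood close to WT, and the call was lost without WT replicate 4 (-0.35, edgeR adjusted p = 0.0568), without atg41 replicate 3 (-0.21, edgeR adjusted p = 0.0600) or without atg41 replicate 4 (-0.31, edgeR adjusted p = 0.0822). With the GC and length trend removed it was -0.23 (edgeR adjusted p = 0.124). MRPL33, the counterpart of L30, fell from 13.8 ± 0.51 to 11.3 ± 1.33 CPM (-0.29 ± 0.11, edgeR adjusted p = 0.0376). Its call was lost in 9 of 20 alternatives, 5 of which left out a single library: WT replicate 1, 3 or 4, or atg41 replicate 2 or 3. With the trend removed it was -0.04 (edgeR adjusted p = 0.783). RSM10 fell from 82.1 ± 1.67 to 69.4 ± 5.56 CPM (-0.24 ± 0.09, edgeR adjusted p = 0.0243), a call lost without WT replicate 1 (edgeR adjusted p = 0.0502) or atg41 replicate 3 (edgeR adjusted p = 0.0806), and with the trend removed (-0.08, edgeR adjusted p = 0.389).

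**Figure D4:**
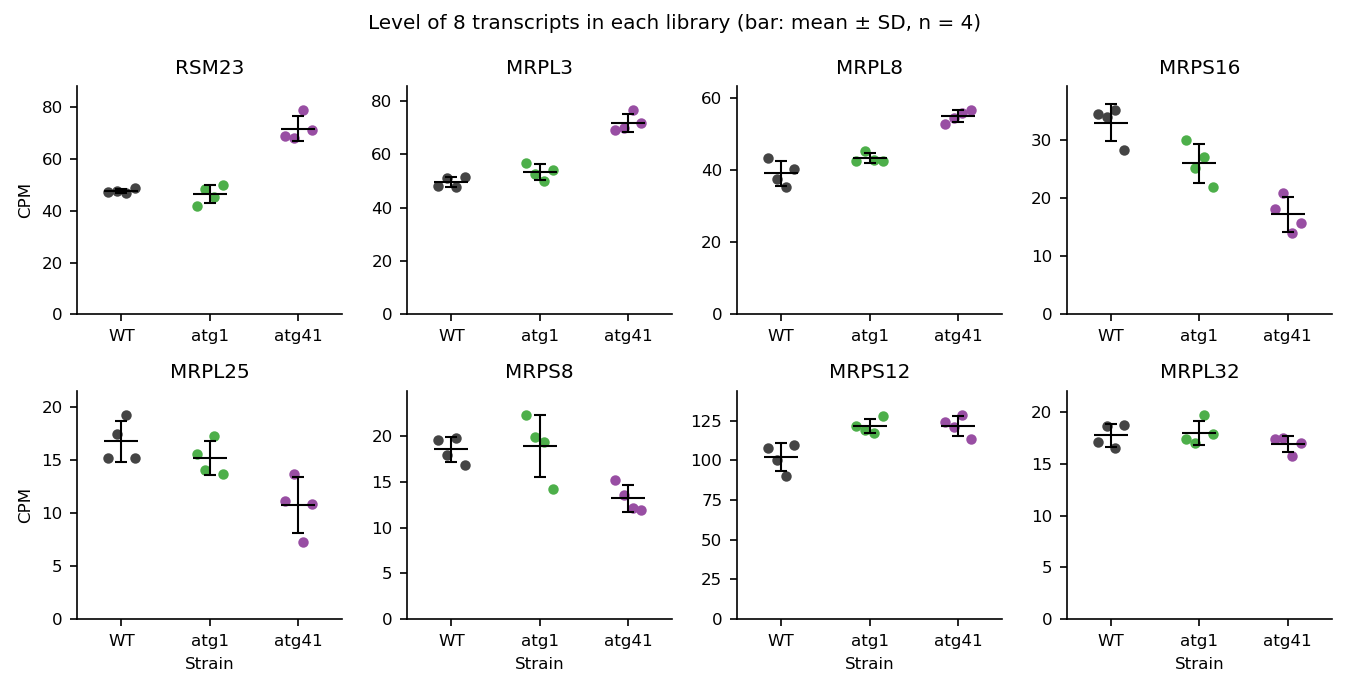
CPM of 8 transcripts in each of the 12 libraries (points) with mean ± SD of 4 libraries per strain (bars), each panel on its own axis from 0. The atg41 libraries lie above all others for RSM23, MRPL3 and MRPL8 and below all others for MRPS16, and the 3 strains overlap for MRPL32.

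MRPL32, the counterpart of bacterial L32, carries cysteine pairs known to bind zinc and is matured in yeast mitochondria by the m-AAA protease. It had 17.2, 18.7, 16.5 and 18.8 CPM in WT, 17.4, 17.0, 19.7 and 17.9 CPM in atg1 and 17.4, 17.5, 15.8 and 17.1 CPM in atg41. The libraries of all 3 strains overlapped. It did not pass in atg41 against WT (-0.07 ± 0.08, edgeR adjusted p = 0.443), in atg1 against WT (0.02 ± 0.08, edgeR adjusted p = 0.920) or in atg41 against atg1 (-0.09 ± 0.08, edgeR adjusted p = 0.341). Without atg1 replicate 1 the comparisons with atg1 gave 0.03 (edgeR adjusted p = 0.872) and -0.11 (edgeR adjusted p = 0.315).

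Both subunits held genes that rose and genes that fell in atg41. In the large subunit 13 of 34 rose and 5 fell, with a median of 0.09. In the small subunit 7 of 20 rose and 5 fell, with a median of 0.05. Of all genes tested 29.9% were called higher and 35.9% lower. Of the 12 small-subunit genes with a bacterial counterpart 5 rose and 5 fell, and of the 7 known only from mitochondria 2 rose (RSM23 and MRPS35) and 0 fell. These subgroups are small, and the difference between them was not tested. The sum of all 54 was 1879 ± 16.8 CPM in WT, 1875 ± 44.9 CPM in atg1 and 2033 ± 51.1 CPM in atg41. The atg41 sums (1960 to 2073 CPM) lay above those of WT (1861 to 1896 CPM) and of atg1 (1829 to 1933 CPM). Without TMM factors the order differed: the 54 genes took 0.193% to 0.205% of counts in WT and 0.179% to 0.202% in atg41, which overlap.

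The direction of the whole group depended on the scaling. With equal totals 14 genes were called higher and 15 lower in atg41 against WT, where 20.2% of all genes tested were higher and 45.5% lower, and the median was -0.07, while the median of all genes tested was -0.17 against -0.04 with TMM. With DESeq2 size factors 22 were higher and 7 lower, where 32.3% and 33.3% of all genes were, with a median of 0.10. Relative to the median of all genes the 54 genes stood 0.10 higher under each of the 3 scalings. A scaling shifts all genes of a library alike, so that this difference was bound to be nearly the same. In the authors' deposited table, 23 of the 54 were higher and 9 lower in atg41 against WT at a false discovery rate under 0.05, with a median log2 fold change of 0.09. In the authors' deposited table the shares over all genes were 33.2% higher and 35.1% lower.

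Within the group the change in atg41 against WT went with the level and the length of the gene, and less closely with its GC content. Spearman's rho of the log2 fold change over the 54 genes was 0.56 with log2 CPM and 0.50 with coding length, and with length it was 0.11 over the 5737 annotated genes tested. In atg1 against WT the values over the 54 were 0.26 with log2 CPM, 0.04 with length and 0.35 with GC content. Over the 5737 annotated genes the value with GC content was 0.37 in atg1 against WT. In atg41 against WT the values with GC content were 0.30 over the 54 and 0.13 over the 5737 genes. The points share the same libraries, and no p is given. Longer genes of the group also had more counts (rho of length and mean CPM 0.60), so that length and level were not separated. The level was averaged over all libraries, those of atg41 included, so that it is not independent of the change. The value with level over all genes was not computed. In 4 length classes chosen after the values were seen, 2 of 14 genes under 450 bases rose and 4 fell, where 14.2% of all annotated genes of that class rose and 46.9% fell. Their median was -0.13, against -0.23 for all. From 450 to below 750 bases 6 of 16 rose and 5 fell (median 0.10 against -0.12 for all), where 25.7% of all rose and 42.5% fell. In the next class, from 750 bases, 9 of 19 rose and 1, MRPL15, fell (0.15 against 0.02), where 33.8% of all rose and 31.2% fell. Of the 5 longest genes 3 rose and 0 fell (0.28 against 0.01), where 34.9% of all rose and 34.2% fell. In each class the median of the 54 lay above that of all genes.

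With each library's trend over GC content and coding length removed, 28 of the 54 were called higher and 3 lower in atg41 against WT, where 34.6% and 31.9% of all genes tested were, and the median was 0.21 against 0.02 for all genes tested. The 20 genes that rose were all still called, 8 more passed as higher, and 7 of the 10 falls were lost. MRPS16 (-0.74 ± 0.12, edgeR adjusted p = 6.98e-05), MRPL25 (-0.36 ± 0.13, edgeR adjusted p = 0.0272) and MRPS17 (-0.25 ± 0.09, edgeR adjusted p = 0.0324) stayed lower, and MRPS8 did not pass (-0.28 ± 0.12, edgeR adjusted p = 0.0574). The rank correlation with length was 0.38 after this step.

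**Figure D5:**
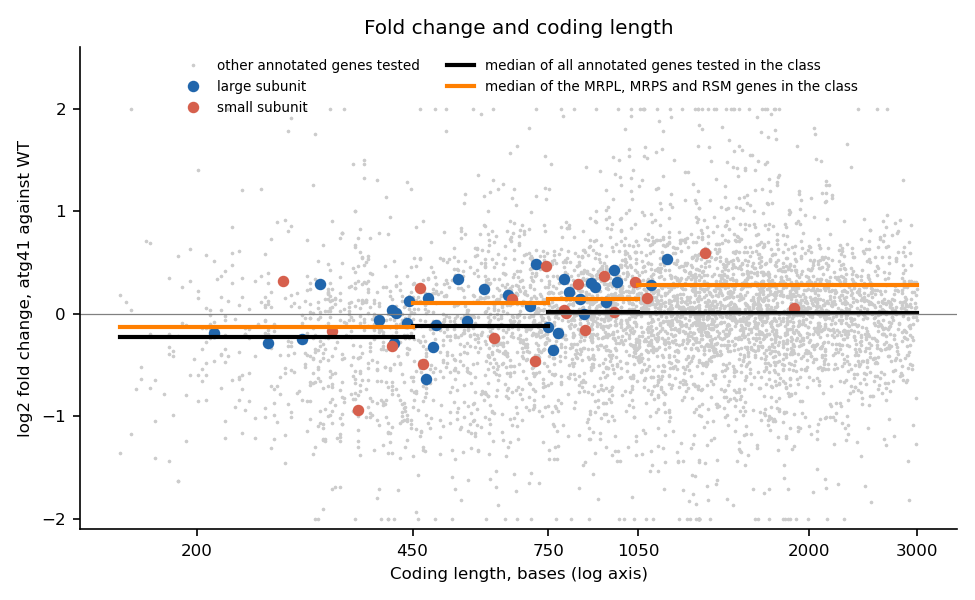
Log2 fold change in atg41 against WT by coding length (bases, log axis) for the 54 genes, coloured by subunit, and for other annotated genes tested (grey). Grey points are limited to lengths of 150 to 3000 bases, and values past 2 or -2 are drawn at that edge; bars mark medians per length class, which in the shortest class are -0.13 for the 54 genes (orange) and -0.23 for all genes (black).

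Compared directly with atg1, 18 of the 54 genes were higher in atg41 and 5 lower, 42.6% in all, where 63.9% of all genes tested were called, 31% higher and 33% lower. Libraries did not overlap for 17 genes above and 2 below, where 56.2% of all genes tested did not overlap, 27.9% above and 28.3% below. The median was 0.08 against -0.0038 for all genes tested. Without atg1 replicate 1 the count was 24, with 18 higher and 6 lower (31.7% and 33.5% of all genes), and the median was 0.12. With equal totals 15 were higher and 7 lower (25.1% and 35.7% of all genes), and with the GC and length trend removed 22 were higher and 3 lower (32.8% and 31.6% of all genes).

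RSM23 again had the largest rise (0.63 ± 0.06, edgeR adjusted p = 1.10e-06), and MRPS16 the largest fall (-0.59 ± 0.13, edgeR adjusted p = 8.60e-04), which was -0.39 with the trend removed (edgeR adjusted p = 0.00967). Without atg1 replicate 1 they were 0.59 (edgeR adjusted p = 2.00e-07) and -0.52 (edgeR adjusted p = 0.00128). MRPL40 had 29.1, 26.1, 23.7 and 20.1 CPM in atg1, 29.9, 30.1, 29.4 and 27.2 CPM in WT and 35.1, 35.5, 32.8 and 36.6 CPM in atg41. The atg41 libraries were the highest of the 3 strains, and those of atg1 and WT overlapped. MRPL40 was higher in atg41 than in atg1 by 0.50 ± 0.09 (edgeR adjusted p = 2.65e-04), and by 0.59 without atg1 replicate 1 (edgeR adjusted p = 6.32e-06). It was higher than in WT by 0.26 ± 0.09 (edgeR adjusted p = 0.0196), a call lost with equal totals (0.13, edgeR adjusted p = 0.237), without WT replicate 4 (0.22, edgeR adjusted p = 0.0687) and without atg41 replicate 4 (0.24, edgeR adjusted p = 0.0548).

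MRPL3 (0.43 ± 0.06, edgeR adjusted p = 1.31e-05), MRPS5 (0.40 ± 0.07, edgeR adjusted p = 2.35e-04) and MRPL10, the counterpart of L15 (0.38 ± 0.05, edgeR adjusted p = 2.58e-05), were also higher in atg41 than in atg1 with no overlap. Without atg1 replicate 1 they remained called, at 0.46, 0.37 and 0.37 in the same order. RSM28, a small-subunit protein known only from mitochondria that is known to promote translation initiation, had 30.4, 31.6, 33.0 and 27.4 CPM in atg1 and 41.7, 40.4, 39.0 and 37.2 CPM in atg41 (0.37 ± 0.07, edgeR adjusted p = 3.67e-04), and the value without atg1 replicate 1 was also 0.37 (edgeR adjusted p = 3.44e-04). Against WT, where it had 34.2, 34.1, 39.1 and 35.2 CPM, RSM28 did not pass (0.15 ± 0.07, edgeR adjusted p = 0.0712), but it was called higher in 7 of 20 alternatives, among them with the trend removed (0.26, edgeR adjusted p = 0.00189). MRPL33 had 18.3, 13.1, 15.4 and 15.3 CPM in atg1 and 12.3, 10.7, 9.73 and 12.5 CPM in atg41 (-0.45 ± 0.11, edgeR adjusted p = 0.00287), with no overlap. The MRPL33 value was -0.37 without atg1 replicate 1 (edgeR adjusted p = 0.00772), and the call was lost with the trend removed (-0.20, edgeR adjusted p = 0.123).

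Genes with 1 Puf3 element and genes with more both included rises and falls. Of the 41 genes with 1 element 16 rose and 7 fell in atg41 against WT, with a median of 0.07. Of the 12 with more than 1 element 4 rose and 3 fell, also with a median of 0.07. Of all genes tested 29.9% rose and 35.9% fell. The 12 genes are few, and the difference between the classes was not tested. Outside the 54 genes and the 24 of the mitochondrial ribosome under other names, 755 tested genes held the element, 233 of them higher and 255 lower, with a median of 0.01, and the 4905 annotated genes without it had a median of -0.04. PUF3 itself had 49.3 ± 1.98 CPM in WT and 49.8 ± 4.80 CPM in atg41 and did not pass (0.02 ± 0.07, edgeR adjusted p = 0.869).

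The rest of the mitochondrial translation apparatus was read from lists of named genes. In atg41 against WT 29.9% of all genes tested were called higher and 35.9% lower, with a median of -0.04. In atg1 against WT 0.387% were called higher and 3.34% lower. Of the 24 mitochondrial ribosomal proteins under other names, 11 rose and 5 fell in atg41 against WT, with a median of 0.10. MRP4, a small-subunit protein, rose from 65.1 ± 2.01 to 93.5 ± 5.77 CPM (0.52 ± 0.06, edgeR adjusted p = 1.68e-06), and RML2, the counterpart of bacterial L2, rose by 0.50 ± 0.05 (edgeR adjusted p = 1.96e-06). MRP2, a small-subunit protein, was lower (-0.43 ± 0.09, edgeR adjusted p = 6.35e-04), and so was IMG2, a large-subunit protein (-0.39 ± 0.11, edgeR adjusted p = 0.00747). With the GC and length trend removed both calls were lost, at -0.09 for MRP2 (edgeR adjusted p = 0.363) and -0.19 for IMG2 (edgeR adjusted p = 0.119). None of the 24 was called in atg1 against WT in edgeR or in DESeq2. An unadjusted p under 0.05 was reached there by 3 of them in edgeR, against 21.2% of all genes tested.

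Of 10 translation factors 3 rose and 3 fell in atg41, where 29.9% of all genes tested rose and 35.9% fell. MEF2, a ribosome-recycling factor of the elongation factor G family, rose by 0.93 ± 0.11 (edgeR adjusted p = 5.54e-06) and FMT1, which formylates the initiator tRNA, by 0.59 ± 0.12 (edgeR adjusted p = 6.20e-04). AIM23, the mitochondrial initiation factor 3, was lower (-1.14 ± 0.15, edgeR adjusted p = 1.63e-05), as was IFM1, initiation factor 2 (-0.47 ± 0.10, edgeR adjusted p = 7.18e-04). TUF1, the elongation factor that brings aminoacyl-tRNA to the ribosome, was the only one of the 10 that rose in atg1 (0.25 ± 0.06, edgeR adjusted p = 0.0388), and IFM1 was the only one that fell there (-0.39 ± 0.10, edgeR adjusted p = 0.0404). TUF1 was named after its values were seen. It also rose in atg41 against WT, by 0.58, a call kept in all 20 alternatives. Of 20 alternatives the TUF1 call in atg1 was lost in 13 and the IFM1 call in 11, and without atg1 replicate 1 both stood (0.20 and -0.39, edgeR adjusted p = 0.0309 and 0.0379).

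Of 17 mitochondrial aminoacyl-tRNA synthetases and amidotransferase subunits 9 rose and 1 fell in atg41, with a median of 0.16. Over all genes tested 29.9% rose and 35.9% fell. SLM5, the asparaginyl-tRNA synthetase, rose by 0.83 ± 0.08 (edgeR adjusted p = 3.85e-07) and MSF1, the phenylalanyl-tRNA synthetase, by 0.68 ± 0.08 (edgeR adjusted p = 2.91e-06), while GTF1, a subunit of the amidotransferase, was lower (-0.56 ± 0.06, edgeR adjusted p = 1.10e-06). In atg1 MSW1, the tryptophanyl-tRNA synthetase, was the 1 called (0.24 ± 0.05, edgeR adjusted p = 0.0190), and it was named after its values were seen. The MSW1 call in atg1 was lost in 6 of 20 alternatives and stood without atg1 replicate 1 (0.25, edgeR adjusted p = 0.0146). MSW1 also rose in atg41 against WT, by 0.54, a call kept in all 20 alternatives.

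Genes listed as translational activators or other factors acting on mitochondrial RNA went both ways, 5 of 17 higher and 5 lower in atg41. Their median was -0.10. Over all genes tested the shares were 29.9% higher and 35.9% lower. CBS1, an activator of cytochrome b translation (0.58 ± 0.10, edgeR adjusted p = 1.71e-04), and PET122, an activator of COX3 translation (0.52 ± 0.10, edgeR adjusted p = 3.15e-04), were higher. With the GC and length trend removed CBS1 was at 0.92 (edgeR adjusted p = 9.90e-07), and the PET122 call was lost (0.20, edgeR adjusted p = 0.0754). PET309, which acts on COX1 (-0.53 ± 0.10, edgeR adjusted p = 4.80e-04), and AEP2, which acts on ATP9 (-0.42 ± 0.09, edgeR adjusted p = 0.00117), were lower.

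Of 15 genes for ribosome assembly, ribosomal RNA modification and membrane attachment 7 rose and 2 fell in atg41, with a median of 0.13. Over all genes tested 29.9% rose and 35.9% fell in atg41. MBA1, a ribosome receptor of the inner membrane (0.56 ± 0.06, edgeR adjusted p = 2.69e-06), and ATP25 (0.54 ± 0.05, edgeR adjusted p = 3.74e-07), whose product is cut into a part that stabilizes ATP9 messenger RNA and a part related to bacterial ribosome silencing factors, were higher. MSS116, an RNA helicase (-0.28 ± 0.09, edgeR adjusted p = 0.00993), and GEP3, a GTPase needed for the small-subunit ribosomal RNA (-0.20 ± 0.08, edgeR adjusted p = 0.0395) were lower. The GEP3 call was lost in 12 of 20 alternatives, and the MSS116 call with the GC and length trend removed (-0.17, edgeR adjusted p = 0.0968). Of 8 genes for mitochondrial transcription and RNA turnover only RPO41, the mitochondrial RNA polymerase, was called, and it rose by 0.45 ± 0.05 (edgeR adjusted p = 5.56e-06). None of the genes in the activator, assembly and transcription lists was called in atg1 against WT in edgeR or in DESeq2. Unadjusted p-values under 0.05 in edgeR numbered 6, 0 and 1 in these lists, against 21.2% of all genes tested.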

How the data were processed

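Poly-A RNA was made into unstranded TruSeq libraries and sequenced in single reads of 100 bases, per the labels' protocols. Per the submitters' processing notes BWA, STAR, RSEM and edgeR were used, in roles that the notes do not state. Versions and genome build: not given in the sources used here. Expected counts deposited by the authors, of which 18.4% were not whole (9.11% for the 54 genes), were rounded, and the authors' deposited TPM were used for levels. For each pair of strains the authors deposited log2 fold changes with likelihood ratio scores, p-values and false discovery rates, whose sign was read from the deleted gene. A further 12 columns of per-sample values were not used here. Columns named icy2 were taken as atg41 because ICY2 is another name of ATG41.

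Genes with enough counts (filterByExpr, minimum count 10, minimum total 15), 6195 in all, were tested in edgeR 4.0.16 (R 4.3.3; TMM, robust quasi-likelihood fit, 1 factor for strain, all 12 libraries, two-sided). The standard error is the log2 fold change divided by the square root of F. Alternatives used DESeq2 1.42.0, other scalings, no filter, 2 strains alone, the replicate number as a block, a spline (3 degrees of freedom) on GC content and coding length, and each library left out. The fit was tested on simulated data. Named genes are the 6 largest non-overlapping rises and falls per comparison, the 3 highest and lowest WT levels, MRPS12, MRPL32 and the 2 largest calls per direction in each list; a further 9 were named after their values were seen. The members, lists and rule were chosen with earlier results of these data known.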

Additional observations from a re-analysis of the deposited data

Results flagged for a closer look

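In 11 of 159 groups of 4 libraries (6.92%) 1 library stood far from the 3 others by Dixon's criterion, which chance meets in about 1 of 20 groups. Among the MRPL, MRPS and RSM genes, MRPS16 was low in WT replicate 4 (28.4 CPM, others 34.0 to 35.1), MRPL15 low in atg1 replicate 3 (24.0 CPM, others 24.9 to 25.1) and MRPL8 high in atg1 replicate 2 (45.4 CPM, others 42.6 to 42.9). The summed level of the small-subunit genes was low in WT replicate 4 (800.1 CPM, others 818.0 to 821.5). Among the comparison lists, IMG2 was high in WT replicate 3 (20.2 CPM), RML2 low in WT replicate 2 (44.3 CPM), CBS1 low (11.2 CPM) and RPO41 high (63.4 CPM) in atg1 replicate 1, GTF1 high in atg1 replicate 4 (34.5 CPM), FMT1 low in atg41 replicate 2 (12.4 CPM) and MRP2 low in atg41 replicate 3 (14.1 CPM).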

How the results depend on the processing

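No named gene changed sign with a call under any alternative. In atg41 against WT the number of the 54 genes called stayed between 24 and 33 over all alternatives, and in atg41 against atg1 between 20 and 25. In atg1 against WT it was 2 with DESeq2 size factors, 3 in DESeq2, 3 with the GC and length trend removed, 0 with the 2 strains alone, and 0 to 4 with single libraries left out (4 without atg41 replicate 3). Medians in atg41 against WT were 0.10 with DESeq2 size factors and in DESeq2, -0.0708 with equal totals, 0.21 with the trend removed and 0.0509 to 0.10 with single libraries left out. In atg1 against WT they were -0.0712, 0.0477 and -0.0252 to 0.0191 for equal totals, trend removed and single libraries left out, and in atg41 against atg1 0.0267, 0.16 and 0.0501 to 0.12. The cause of these shifts was not tested.

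Same-numbered libraries of different strains did not deviate together more than others (correlations -0.17 to 0.16, 2 of 12 over 0.1, against -0.15 to 0.21). These values cannot show whether same-numbered libraries were handled together, and the labels do not say what a number stands for. With the replicate block the calls were 28 in atg41 against WT, 0 in atg1 against WT and 21 in atg41 against atg1. With the block and the trend removed the medians were 0.21 (atg41 against WT), 0.046 (atg1 against WT) and 0.16 (atg41 against atg1), and 26 genes were higher and 4 lower in atg41 against WT.

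The largest standard errors among the 54 genes in atg41 against WT were those of MRPL38 (0.17), MRPL39 (0.16) and MRPL25 (0.15) on the log2 scale, with 14.7, 11.1 and 10.8 CPM in atg41. The part of depth in these errors was not tested.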

Other observations

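MRPS12 and RSM19, counterparts of bacterial S12 and S19, are the only pair of the 54 genes that are close neighbours. They lie on the minus strand of chromosome XIV with 229 bases between them, and the next closest pair is 11016 bases apart. RSM19 had 19.4, 20.6, 21.3 and 19.8 CPM in WT, 17.7 to 22.6 CPM in atg1 and 24.9, 25.3, 26.2 and 25.1 CPM in atg41. It rose in atg41 against WT with no overlap (0.32 ± 0.08, edgeR adjusted p = 0.00196) and did not pass in atg1 against WT (-0.02 ± 0.08, edgeR adjusted p = 0.930; -0.08, edgeR adjusted p = 0.625 without atg1 replicate 1), where MRPS12 did. With equal totals the rise in atg41 was 0.19 (edgeR adjusted p = 0.0480). The pair was picked after its position and values were seen.

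In the authors' deposited tables, 1 of the 54 genes was higher and 1 lower in atg1 against WT at a false discovery rate under 0.05, and 15 were higher and 5 lower in atg41 against atg1. Over all genes in the authors' deposited tables, shares of 0.389% and 4.42% were higher and lower in atg1 against WT, and 26.6% and 29.3% in atg41 against atg1.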
